A study of Drosophila eugracilis and Drosophila pseudoobscura and Drosophila bifasciata with 4 samples.

Results

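The polyadenylated RNA of Drosophila bifasciata ovaries was read from 1 library, the D. bifasciata library among 4 libraries of the series. All 13983030 alignments of its list were used, and both reads of a pair carry the same name, so that the library held 6994057 read names, each counted once as a pair. The title, the organism field and the names of the mapped sequences belong to D. bifasciata, while the free-text description of the sample names D. eugracilis, and the title was followed. The flies were wild type females of the strain labelled Jozankei, Hokaidou, kept on standard food at room temperature. Their age is labelled 2 to 7 days, and the dissection text gives 3 to 7 days. The strain label differs from the stock given in the methods of the study. For comparison, the polyA libraries of D. pseudoobscura (strain label MV2-25) and D. eugracilis (strain label SHL12) were processed alike, from wild type females with the same age labels and food. Each species had 1 library, so species, library and preparation cannot be told apart, no test between libraries was possible, and every interval below is a 95% interval that covers counting error only.

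The ovary of a fly holds germline cells, the nurse cells and the oocyte, wrapped in somatic follicle cells, and its polyA RNA is the sum of both. Some of the long RNAs made there are precursors of PIWI-interacting RNAs (piRNAs), small RNAs that guide PIWI proteins to transposon transcripts and that arise from stretches of the genome, called clusters, which are crowded with transposon remains. The series was made to find the genomic origin of such precursors in species that differ in the proteins of the pathway. A directional library keeps the strand of each RNA, and a read that is split over an intron shows that the RNA was spliced.

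A transcription unit was built by merging alignments that touch on the same strand and joining merged blocks by introns seen in at least 3 pairs and up to 20000 nt long. The 87504 merged sets included 11769 with at least 10 pairs. Of these, 740 were left out because their pairs were under 5% of the pairs on the other strand of the same stretch, so that stray reads of the other strand formed no unit. The 11029 units that remained held 97.5% of the pairs. The level of a unit is given as pairs per kb of covered length per 1000000 pairs, and the amount in a region as pairs per 1000000 pairs (CPM). The mapped assembly was used without gene names, so units are named by position (UCBerk_Dbif_1.0, counted from 1), and the ovary label could not be checked against marker genes.

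Units with an intron held nearly all of the pairs in units. At least 1 intron was found in 7107 units, 64.4% of all (63.5 to 65.3%), and these held 93.5% of the pairs in units. An intron counts once 3 pairs show it, however many pairs the unit has, so this share is partly set by abundance. Of all read pairs in the library, 25.7% had a split read. The median span was 1321 nt (quartiles 532 and 3170 nt), with 2333 nt for spliced and 418 nt for unspliced units. A spliced unit had a median of 3 introns (quartiles 1 and 5), or 2 when introns that overlap each other were counted once. The percentage of spliced units ranged over the settings tried, which changed 1 choice at a time, from 51.9% with 10 pairs required per intron to 85.4% with 50 pairs required per unit. The median span ranged from 948 nt to 2200 nt under the same settings. In D. pseudoobscura 54.2% of 13355 units and in D. eugracilis 63.8% of 11821 units were spliced. Read pairs spanned a median of 187 nt in D. bifasciata, 123 nt in D. pseudoobscura and 127 nt in D. eugracilis, and what part the longer fragments had in longer units was not tested.

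Introns were mostly short. The 26519 introns had a median of 72 nt, the most frequent length was 62 nt, and 57.5% were between 50 and 80 nt long. A further 15.7% exceeded 1000 nt. The median was also 72 nt in D. pseudoobscura and was 71 nt in D. eugracilis, with most frequent lengths of 63 nt and 59 nt. Position within a unit went with length. Introns closest to the 5′ end of their unit had a median of 179 nt (n = 3715) against 71 nt for the other introns (n = 17955), and 27.0% of these 5′ introns exceeded 1000 nt against 14.1% of the others. Most splice sites were joined to a single partner, while overlapping introns were found in 1743 spliced units (24.5%). Of 25336 donor sites, 4.20% (3.96 to 4.45%) joined to more than 1 acceptor, and of 24853 acceptor sites, 5.23% (4.96 to 5.52%) joined to more than 1 donor.

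**Figure D1:**
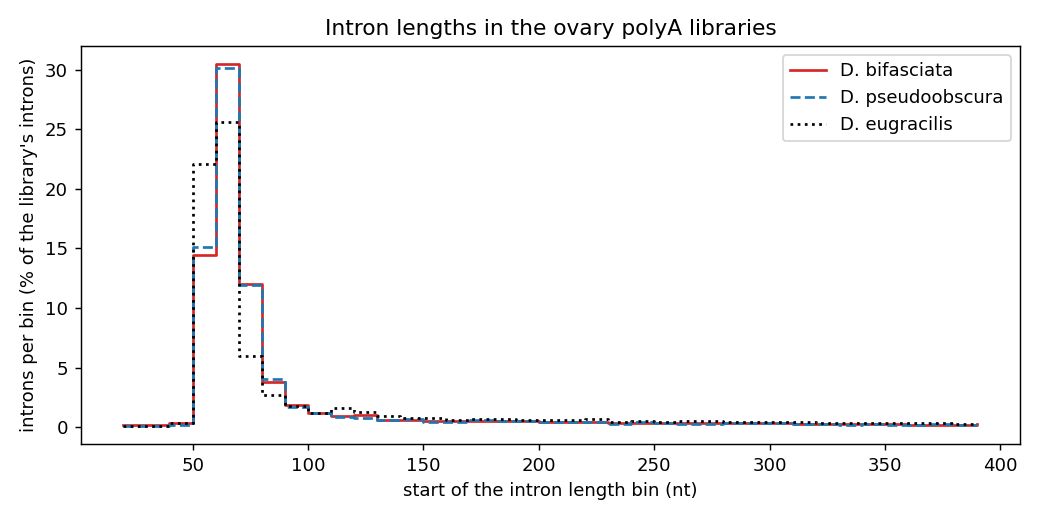
Intron lengths in bins of 10 nt up to 400 nt, as a percentage of each library's introns, for D. bifasciata (solid), D. pseudoobscura (dashed) and D. eugracilis (dotted). All 3 libraries peak between 50 and 80 nt, with 57.5% of the D. bifasciata introns in that range.

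Levels differed with the number of introns. The 3922 unspliced units had a median level of 9.27 (quartiles 5.47 and 25.3), and units with 1 intron had 15.4. Units with 2 introns reached 26.6, those with 3 to 5 introns 28.0, those with 6 to 10 introns 32.5 and those with more than 10 introns 31.7. Beyond 2 introns the quartiles of the classes overlapped almost wholly. The 2260 units with 3 to 5 introns held 33.9% of the pairs in units, the largest part of any class. Introns are found only where enough pairs cross them, so a low level and a missing intron are not independent readings.

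**Figure D2:**
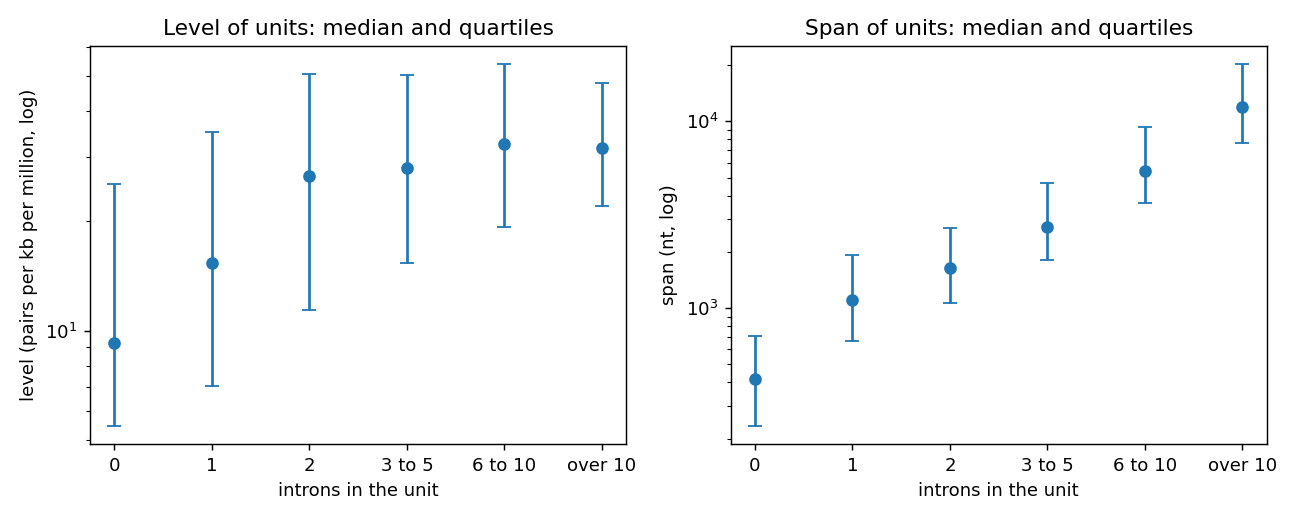
Level (left, log axis) and span (right, log axis) of D. bifasciata units by number of introns. Points are medians and bars run from the lower to the upper quartile. Median level is 9.27 in unspliced units and between 26.6 and 32.5 in the classes with 2 or more introns, while median span grows from 418 nt to 11900 nt over the classes.

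Few units made up most of the transcriptome. The 10 units with most pairs held 9.98% of the pairs in units, the first 100 held 29.7%, the first 1000 held 63.4%, and 451 units held 50%. Counting copies of a pair with identical blocks once lowered the share of the first 100 to 25.5%. The median level was 19.5 (quartiles 8.06 and 41.4), 774 units exceeded 100 and 98 exceeded 1000.

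The leading pair of units lay head to head on CM019041.1. The minus-strand unit at 39173703 to 39178677 had 114160 pairs and the plus-strand unit at 39176641 to 39178771 had 111879. The minus unit reached across its neighbour only through 1618 pairs, 1.45% of the plus unit's count. Of its 16 introns only 1, of 59 nt, was in more than 1% of its pairs. That intron was read in 19450 pairs. The plus unit used introns of 69 nt (14797 pairs) and 75 nt (11682 pairs), and these same introns were read in 179 and 98 pairs labelled minus. This pair of units supplied 86.0% of the pairs in its 1 Mb window, which had the most RNA of all windows (37576 CPM).

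The next units were of other shapes. The plus unit at CM019041.1 35424172 to 35425914 (103837 pairs, level 8528) used introns of 77 nt and 74 nt. The plus unit at CM019043.1 6414446 to 6426207 (92823 pairs) used an intron of 1669 nt in 12750 pairs, and its span of 11762 nt rests on an intron of 8948 nt read in 16 pairs. The plus unit at CM019043.1 38607873 to 38608862 had 48478 pairs and a 65 nt intron in 26823 of them. The highest level of units with at least 500 nt of covered length, 8815 (8736 to 8894), belonged to the minus unit at CM019042.1 41517072 to 41517854, with 48272 pairs, whose most frequent intron was in only 17 pairs. Of the other leaders, the plus unit at CM019042.1 44717836 to 44721937 had 43504 pairs, the minus unit at CM019041.1 30664581 to 30666843 had 42930 and the minus unit at CM019041.1 7010629 to 7017053 had 38645. The plus unit at CM019043.1 8237696 to 8238439 had 36544 pairs, a level of 7023 and the densest splicing, with introns of 73 nt and 135 nt in 28101 and 25571 pairs. Of its pairs 29.2% were distinct, the lowest share among the 10 units with most pairs. On WIOZ01000156.1 the intronless plus unit at 9119 to 9729 reached a level of 8263, and 25.0% of its 35312 pairs were distinct.

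Long units were few, and little of their span was covered length. The 240 units of over 20 kb were 2.18% of all units and held 4.20% of the pairs, and a median of 14.2% of their span was covered. Their median level, which is per kb of covered length, was 20.9 against 19.5 over all units. The longest units of the sequences spanned 68498 nt on CM019041.1 (12884516 to 12953013, minus, 900 pairs), 56457 nt on CM019042.1 (17878087 to 17934543, minus, 6142 pairs), 76425 nt on CM019043.1 (19318231 to 19394655, minus, 439 pairs), 68580 nt on CM019044.1 (33753695 to 33822274, minus, 909 pairs) and 64453 nt on CM019045.1 (46102 to 110554, minus, 535 pairs). All 5 are on the minus strand, whereas 120 of the 240 units over 20 kb are on the plus strand. The units with most introns had 30 on CM019041.1 (4619401 to 4677659, plus), 25 on CM019042.1 (33538099 to 33572008, plus), 26 on CM019043.1 (11467317 to 11485782, minus), 26 on CM019044.1 (9775307 to 9838402, minus) and 20 on CM019045.1 (953104 to 977663, minus). Their levels were between 14.4 and 29.9 on the 4 long sequences and 116 on CM019045.1. The most abundant units of the sequences not yet named were at CM019044.1 37456566 to 37460091 (plus, 24806 pairs) and at CM019045.1 121025 to 122217 (plus, 29029 pairs).

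Along a unit the coverage was even. In 4678 spliced units with at least 1000 nt of covered length and 100 pairs, each of the first 8 of 10 equal parts from the 5′ end held 10.4 to 11.3% of the aligned bases on average, the part before the last held 9.41% and the last held 5.03%.

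The chromosome-scale sequences differed in how densely they were transcribed. CM019043.1 held 3623 units, 74.4 per Mb (72.0 to 76.8), and 33.2% of the pairs. CM019042.1 of similar length held 2066 units, 43.0 per Mb (41.2 to 44.9), and 16.2% of the pairs. CM019044.1 had 54.6 units per Mb and CM019041.1 had 62.4. The ratio of the highest to the lowest density was 1.73 and became 1.92 for spliced units only. CM019041.1 held 24.1% and CM019044.1 22.4% of the pairs. Without the 10 most abundant units of each sequence, CM019043.1 still held the largest share of the remaining pairs (35.4%), and CM019044.1 with 24.5% came before CM019041.1 with 20.3% and CM019042.1 with 15.9%. Plus-strand units were 50.7, 48.5, 49.2 and 49.9% of the units on CM019041.1 to CM019044.1, each within counting error of an even split.

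The small sequence CM019045.1 (alignments reach 1.36 Mb) held 100 units at a density of 73.3 per Mb. Its 69 spliced units had on average 5.64 introns, against 3.27 to 3.91 on the 4 long sequences. Its introns had a median of 108 nt (89 to 149 nt over introns), against medians of 70 to 79 nt. Its spliced units had a median level of 15.8 (9.51 to 22.2), against 22.4 to 27.6. Its 10 leading units held 75.9% of its pairs. On 60 unplaced contigs, 210 units held 2.78% of the pairs, and 5 of these contigs held 74.6% of that amount. Their introns had a median of 252 nt.

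On each long sequence transcription thinned out in 1 broad inner zone. Over 182 full windows of 1 Mb the median was 57.5 units (range 2 to 438). The longest run of windows below 50% of that median was taken as a sparse zone, with the limit chosen after the windows had been seen, so that the low density is how the zones were chosen. The zones lay at 18 to 30 Mb on CM019041.1, 18 to 38 Mb on CM019042.1, 18 to 25 Mb on CM019043.1 and 19 to 33 Mb on CM019044.1. They cover 29.0% of the 4 sequences and held 12.2 units per Mb against 77.5 outside. The amount of RNA follows the number of units from window to window (Spearman correlation 0.88 over 182 windows of 1 library), so it too was largely set by the choice, with 531 CPM per Mb in the zones against 6977 CPM per Mb outside. The 5 most abundant units of the zones held 24.9% of their pairs. A limit of 33.3% of the median shortened them to 18 to 29, 22 to 30, 19 to 23 and 26 to 33 Mb.

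The units that remained in the sparse zones differed from the rest in measures the choice did not use. Of their introns, 32.9% exceeded 1000 nt against 14.6% outside, and the excess was seen on each sequence, with 34.8% in the zone against 17.0% outside on CM019041.1, 35.1% against 15.3% on CM019042.1, 27.0% against 13.6% on CM019043.1 and 32% against 13.8% on CM019044.1. Units of over 20 kb were 5.12% of the 644 units in the zones and 1.99% of the 10075 outside. Spliced units in the zones had a median level of 18.1 (16.0 to 21.0) against 26.5 (25.7 to 27.2) outside, and a median covered length of 867 nt against 1663 nt. Unspliced units went the other way, with a median level of 14.4 in the zones against 8.94 outside (8.02 outside without the densest window). Their medians were 18.2 in the zone against 16.7 outside on CM019041.1, 14.4 against 8.15 on CM019042.1, 9.26 against 7.74 on CM019043.1 and 15.5 against 7.39 on CM019044.1. The zones also held 25.0% of the fragments of 24 to 32 nt described below. Units made mostly of such fragments were all unspliced, with a median level of 46.1 over the library. The medians of unspliced units in the zones without these fragments were not computed. A pair of intronless plus-strand units 6 nt apart stood out, at CM019042.1 27248274 to 27248434 (9647 pairs) and 27248441 to 27248857 (12148 pairs), named here after their values were seen. The longest stretches without any unit were 638432, 896619, 797656 and 1038290 nt on CM019041.1 to CM019044.1, each within a zone, with between 132 and 159 pairs in each.

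**Figure D3:**
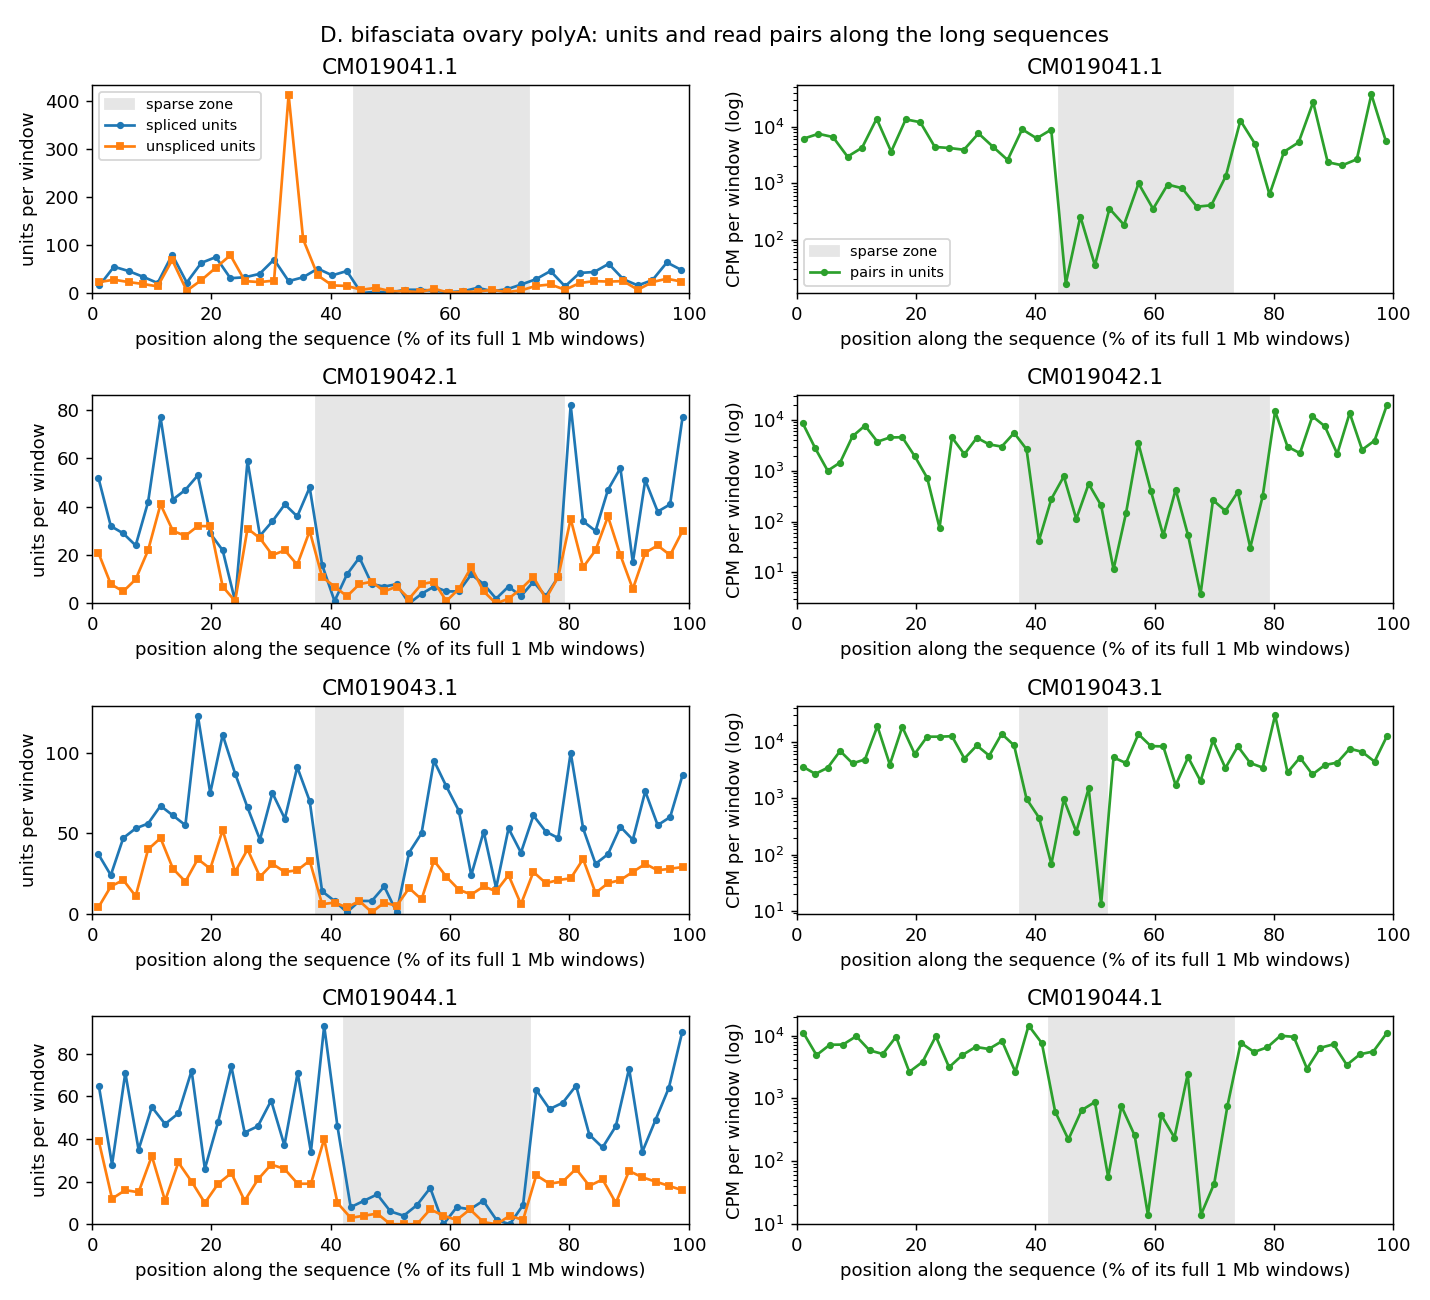
Units per full 1 Mb window (left, spliced in blue and unspliced in orange) and CPM in units (right, log axis) along the 4 long D. bifasciata sequences, with position as a percentage of the windows and the sparse zone shaded. The zones were chosen for their low number of units, which CPM follows (531 CPM per Mb inside, 6977 CPM per Mb outside), and the peak of unspliced units on CM019041.1 is the window with 438 units.

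Neighbouring units were arranged in ways that depended on their strands. Among 2453 convergent neighbours 22.8% (21.2 to 24.5%) overlapped partly, by a median of 76.5 nt, against 2.61% (2.02 to 3.32%) of 2453 divergent neighbours. Of all 10814 neighbours, 9.51% overlapped on opposite strands in part or in whole, and this share was 6.30% with 50% of the pairs. Among spliced units alone the shares of partial overlaps were 29.3% of 1322 convergent and 3.26% of 1504 divergent neighbours. Divergent spliced units that did not overlap started close together, with 67.6% of 1403 such neighbours under 1000 nt apart and 30.9% under 250 nt. The Spearman correlation of the levels of divergent neighbours was 0.10 over all 2189 that did not overlap, 0.06 over 949 spliced neighbours under 1 kb apart and -0.08 over 454 at 1 kb or more. The correlation over convergent spliced neighbours under 1 kb apart was -0.01 (n = 382). Neighbours on the same strand had 0.61 (n = 1089), and 0.21 at 1 kb or more (n = 1036). Neighbours share a library and a stretch of chromosome, and pieces of 1 gene can stand as separate same-strand units. Of the unspliced units, 901 lay within 1 kb downstream of a spliced unit on their strand, 365 within 1 kb upstream, 284 inside an intron and 2372 apart from any.

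The densest window was unlike the others. Between 13 and 14 Mb of CM019041.1 there were 438 units, 413 of them unspliced, which is 10.5% of all unspliced units of the library, with a median span of 68 nt. The next densest window held 163 units, of which 111 were spliced. CM019041.1 had the lowest percentage of spliced units of the 5 chromosome-scale sequences, 49.6% (47.6 to 51.5%). Without this window it was 58.6% (56.5 to 60.7%), and without fragments of under 40 nt it was 63.1% (60.9 to 65.2%), both alternatives chosen after seeing the data. Without the short fragments the window itself held 60 units in place of 438.

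These short fragments formed a class of their own. In D. bifasciata 36677 read pairs, 0.524% (0.519 to 0.530%), spanned 24 to 32 nt, both reads covering the same few bases, and the most frequent length was 28 nt with 8864 pairs. At 26 nt there were 537 pairs and at 35 nt 715. D. pseudoobscura had 1089 pairs of 24 to 32 nt (0.0154%) and D. eugracilis 1350 (0.0206%), with no peak at these lengths. The D. pseudoobscura library held more fragments under 40 nt, 1.06% against 0.595% in D. bifasciata, and its most frequent length under 40 nt was 35 nt, with 15518 pairs.

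Fragments of 24 to 32 nt lay mostly outside spliced units. Regardless of strand, 5.83% of them had their midpoint within the span of a spliced unit, against 93.0% of all pairs. By their labelled strand, 0.191% of them fell to spliced units, against 91.2% of all pairs, and 44.0% fell to unspliced units, against 6.35% of all pairs. CM019041.1 held 75.2% of them. The 8 windows of 100 kb with more than 20 unspliced units held 53.6% of them but 0.598% of all pairs. Short fragments themselves formed many of the unspliced units by which these windows were chosen, so this concentration was partly set by the choice. The sparse zones, with 29.0% of the length and 3.01% of the unit pairs of the 4 long sequences, held a further 25.0% of the short fragments. In 7 of those 8 windows the short fragments were 37.7 to 87.8% of the pairs. In the remaining window, at 5.2 Mb, 8 of 13968 pairs had this length. Units made mostly of such fragments numbered 599, all unspliced, 375 of them in the densest window, with a median span of 56 nt.

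In the windows rich in short fragments that are described here, the majority of these lay on the strand opposite to the majority of the longer ones. In the window from 13.3 Mb, 4164 short fragments were labelled minus and 373 plus, while fragments of 60 nt or longer outside spliced units were 55 minus and 289 plus. In the window from 13.5 Mb, 3020 short fragments were plus and 15 minus, while 48 longer ones were plus and 2372 minus. Most of these longer ones came from 1 unspliced minus unit of 4917 nt (CM019041.1 13532222 to 13537138, 2168 pairs). In the window from 13.7 Mb, 2823 short fragments were plus and 4 minus, against 12 longer plus and 521 longer minus. The window from 9.9 Mb had 1237 short plus and 2 short minus fragments, against 20 longer plus and 244 longer minus, and a spliced minus unit of 4 introns stood near its right end (9993616 to 9997731, 1405 pairs). From 14.3 Mb, 1138 short fragments were minus and 61 plus, against 28 longer minus and 358 longer plus. The windows from 13.4 Mb and 14.2 Mb had short fragments of both strands in bulk (1851 plus and 3100 minus, 828 plus and 1018 minus), while the longer ones were mostly plus (611 plus and 57 minus, 295 plus and 20 minus).

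**Figure D4:**
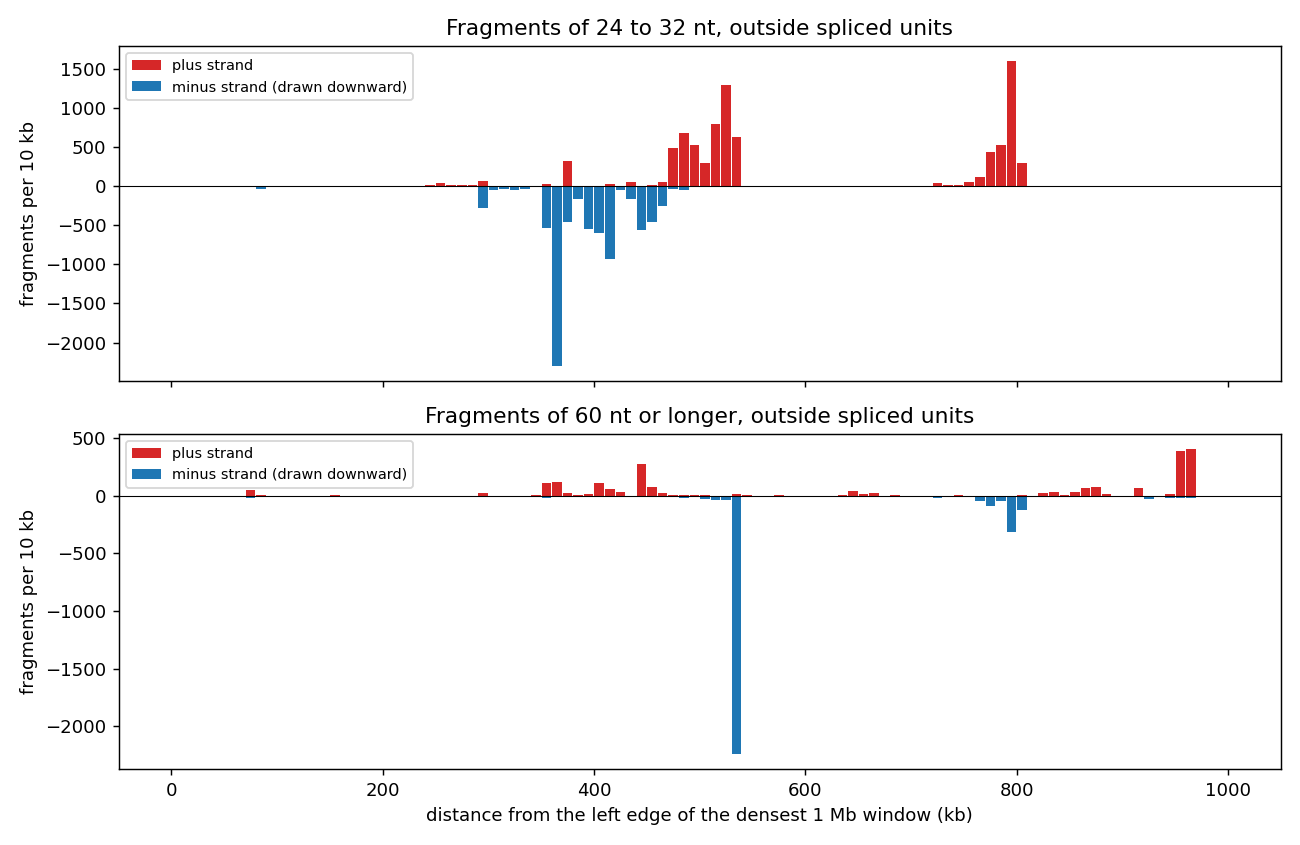
Fragments of 24 to 32 nt (top) and of 60 nt or longer (bottom) outside spliced units per 10 kb of the densest 1 Mb window of CM019041.1, with plus-labelled fragments drawn upward in red and minus-labelled ones downward in blue. The profiles mirror each other in parts of the window. Mostly short minus over longer plus fragments lie between about 350 and 470 kb, and short plus over longer minus fragments at 470 to 540 kb and 760 to 810 kb. Elsewhere they do not, as in the bins from 950 and 960 kb, with 388 and 407 longer plus fragments and 0 short ones.

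Short fragments within the span of spliced units, introns included, were also mostly on the opposite strand. Within the span of a unit of the opposite strand there were 1996, and 170 within that of a unit of their own strand. Of these placements 92.2% were opposite. The 2 counts together exceed the 2137 fragments that lay within a spliced unit on either strand, so the share is one of placements rather than of separate fragments. The placements are pooled over units, and the number of units that supplied them was not counted. A further count took 26 windows of 100 kb with more than 100 short and at least 20 longer fragments outside spliced units. The majorities lay on opposite strands in 17 of them, and in 7 of the 9 in which both classes were one-sided (at least 90% of the short and 75% of the longer fragments). The 26 windows include all those described in the preceding paragraph, each with opposite majorities, so the 2 readings are not separate. Among the windows outside that paragraph, the share with opposite majorities is therefore lower than 17 of 26. Among the one-sided windows outside it, the share is likewise lower than 7 of 9. How often majorities would differ without an inversion was not computed. The strand given in the list for these short fragments is therefore not used here as the strand of the RNA, and unit counts per strand in these windows follow the short fragments.

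The ends of the short fragments showed an excess at distance 0 on the same strand. Between strands the excess covered a range of overlaps and was highest at 10 and 11 nt. One fragment's 3′ end was directly followed by the 5′ end of another on the same strand at 680 positions, against a median of 497.5 positions (441 to 532) for each distance from 1 to 20 nt, a ratio of 1.37. An overlap of 1 nt was next, with 547 positions. Fragments of 60 to 300 nt on CM019041.1 had no such excess, with 39474 positions at distance 0 against a median of 41472. Between strands, the labelled 3′ ends overlapped by 10 nt at 49 positions, by 11 nt at 41 and by 12 to 15 nt at 12 to 24 each, against a median of 7 over all overlaps from 1 to 24 nt other than 10. The labelled 5′ ends overlapped by 10 nt at 2 positions, against a median of 7. If the strand label of these fragments is inverted, the overlaps of labelled 3′ ends are those of 5′ ends. A 10 nt overlap of 5′ ends and head-to-tail spacing are known features of piRNAs, made by slicing and by phased cutting of a precursor. Whether these fragments are piRNAs carried into the library, and by what route, was not tested, and their first bases could not be read without the genome. The borders of the piRNA clusters of the study were not used here.

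**Figure D5:**
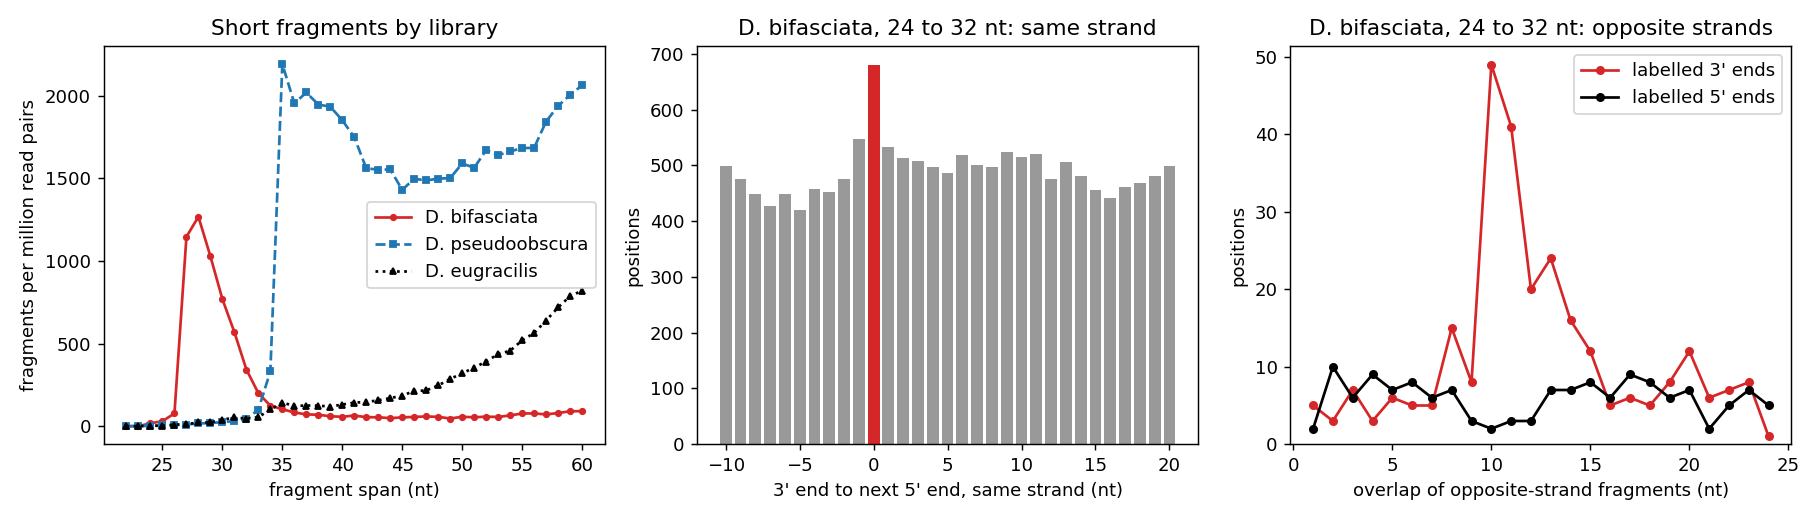
Left, fragments per 1000000 pairs by span in D. bifasciata (red), D. pseudoobscura (blue) and D. eugracilis (black). Middle and right, D. bifasciata fragments of 24 to 32 nt, as positions by the distance from a 3′ end to the next 5′ end on the same strand (680 at distance 0, in red) and positions by the overlap of opposite-strand fragments at their labelled 3′ ends (red, 49 at 10 nt) or 5′ ends (black).

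Intact copies of gypsy elements with an env gene, retroviruses of the fly that are targets of somatic piRNAs, gave few uniquely mapped pairs. Their 17 insertion sites come from the study. Only pairs with a unique place in the genome are seen, so near-identical copies are under-counted. The 12 copies of Gypsy_DS had 100 pairs together (81.4 to 122), and the 5 copies of Gypsy17_Dpse had 2 pairs. Of the latter, 3 copies had 0, which allows up to 0.429 CPM of uniquely mapped pairs in each and sets no limit on their RNA. No unit lay over any copy, and 11 of the 17 were in sparse zones. The 6 copies with at least 10 pairs were copy 2 on CM019042.1 (12 sense, 3 antisense), the copy on WIOZ01000119.1 (5 sense, 9 antisense), copy 1 on CM019042.1 (11 sense, 1 antisense), and copies 1 (3 sense, 9 antisense), 3 (7 sense, 5 antisense) and 2 (10 sense, 0 antisense) on CM019041.1, all of Gypsy_DS. As labelled, 71 of the 100 Gypsy_DS pairs were sense. By length, 53 of 56 pairs under 40 nt were sense (94.6%, 85.1 to 98.9%), and 18 of 44 longer pairs were sense (40.9%, 26.3 to 56.8%), so the sense majority rests on the short fragments. Copy 1 on CM019041.1 had 1026 pairs and 38 units within 10 kb on either side, while 14 of the 17 copies had no unit that near. The pairs and units beside the copies are not split by fragment length here.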

How the data were processed

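The authors removed adapters and low-quality reads, mapped the pairs with STAR 2.7.3a (at most 3 mismatches), and deposited the uniquely mapped reads as alignment lists made with bedtools 2.28.0. The submitters' processing notes also name SAMtools 1.10. In the deposited lists the score column holds the mapping score 255 in every line and served as no level. Start, end, strand, name and aligned blocks were used. Reads with several places in the genome are not seen, so repeats are covered only at unique stretches. The QuantSeq library was not used.

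Pairs, units, introns and windows were counted in Python 3.11.15 with numpy 2.4.6, scipy 1.17.1, pandas 2.3.3 and pyarrow 21.0.0, and drawn with matplotlib 3.10.9. Introns shorter than 20 nt were ignored. A pair was given to the unit with most of its aligned bases. Depth was 6994057 pairs in D. bifasciata, 7082759 in D. pseudoobscura and 6551749 in D. eugracilis, and 69.0% of the D. bifasciata pairs were distinct. Shares carry exact Clopper-Pearson and counts exact Poisson intervals of 95%, and intervals of medians come from order statistics over units or introns, which are not replicates. The limit for a count of 0 is 3 counts. Lengths of sequences are the furthest aligned base.

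The members and lists were chosen with earlier results of these data known. Units named are the 10 with most pairs, the 5 with the highest level among those of at least 500 nt of covered length, on each chromosome-scale sequence (over 1 Mb) those with most pairs, longest span and most introns, and gypsy copies with at least 10 pairs. Exceptions are stated where they occur. The unit builder was tested on 2000 simulated units with 1% wrongly stranded pairs. Of these units, 97.0% came back as 1 unit, and 0 units arose on the wrong strand. The 1% lies under the 5% limit for pairs on the other strand, so the 0 was largely fixed by that limit. The simulated units neither overlapped nor held fragments of under 40 nt, so neither case was tested.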

Additional observations from a re-analysis of the deposited data

How the results depend on the processing

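No paired analysis was possible because each species had 1 library. The number of units stayed within 1.5 times of 11029 except with at least 50 pairs per unit, where it was 7021. With that setting 85.4% of units had an intron, the median span was 2200 nt, the density ratio was 1.96 and the first 100 units held 30.1% of pairs. With 1 pair per intron the values were 68.9% with an intron, 1483 nt span, 77 nt intron length, 11.5% of neighbours overlapping on opposite strands (9.51% as reported) and 30.3% of pairs in the first 100 units. With 10 pairs per intron they were 51.9%, 948 nt, 69 nt, 7.53% and a median of 2 introns. Introns of up to 100000 nt gave 1363 nt span, 73 nt introns, 10.5% overlapping and 29.8% of pairs. Gaps of up to 50 nt bridged gave 68.1% with an intron, 1555 nt, 11.5% and 29.8%, and joined mates 68.2%, 1657 nt, 11.7% and 30.0%. No opposite-strand filter gave 63.0%, 1215 nt, 12.7% and 29.6%. Copies counted once gave 69.6%, 1531 nt, 8.57% and 25.5%. With 50% of the pairs the values were 69.6%, 1422 nt, 70 nt introns, a median of 2 introns, 6.30% and a density ratio of 1.84. The alternatives chosen after seeing the data were leaving out the densest window (66.9%, 1405 nt and 29.9%), leaving out fragments under 40 nt (68.3%, 1456 nt and 29.8%) and the density ratio of spliced units only (1.92). Of 91 values, 48 moved beyond the counting interval of the value reported (for counts, 1.5 times) and 43 did not. The 102 pairs on gypsy copies became 75 when only pairs wholly within a copy were counted and 92 with copies of a pair counted once.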
